A study of Mus musculus with 24 samples.

Results

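Guanylate-binding proteins (GBPs) are the large GTPases that cells make in response to interferon. The transcripts of Gbp2, Gbp2b, Gbp3, Gbp6 and Gbp7 were followed here in the mouse fibroblast line NIH-3T3. Every probe set that the platform annotation assigns to one of these 5 genes was taken, which gave 8 of the 45037 probe sets that are not controls, and 5 of the 18193 genes with a probe set of their own. A probe set is a group of short probes on the array whose signals are summarised as 1 value per transcript. Gbp2, Gbp6 and Gbp7 had 2 probe sets each, and Gbp2b and Gbp3 had 1.

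Total cellular RNA was hybridised to 24 one-colour arrays in 7 groups, and the interferons were given at 100 U/ml in fresh medium. The 1 h groups were mock cells, cells given IFN-alpha and cells given IFN-gamma (4 arrays each), all with 200 µM 4-thiouridine (4sU), a nucleoside that enters newly made RNA, for the whole 60 min. The 3 h groups had the same 3 treatments (3 arrays each) and carried 500 µM 4sU from 150 to 180 min. In the last group, mock cells at 1 h received no 4sU (3 arrays). All 7 groups share 1 cell line, cultured 5 to 15 passages after thawing, and nothing in the labels says that same-group arrays came from separate cultures. In bulk RNA, a change in the number of responding cells and a change in RNA per cell cannot be told apart.

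GBPs are made at low level in resting cells and accumulate after interferon. They assemble on the membranes of vacuoles that hold bacteria or parasites and on free cytosolic bacteria, where they help to break the membrane open and expose microbial products to inflammasome sensors. Some members, Gbp2 among them, carry a C-terminal prenylation signal, which anchors the protein in membranes. In promoters, IFN-gamma signalling acts mainly at GAS elements and IFN-alpha signalling mainly at ISRE elements. IRF1, itself induced by IFN-gamma, also binds ISRE-like sites.

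Values are GCRMA signals on the log2 scale, so a difference of 1 is a doubling. A value of log2 4 was taken as background. Where the lower group lay below it, the fold is a bound against that level, written "at least", with each array of the lower group raised to 4 where it was under it. Fibroblast markers were abundant (9 of 10 above background, median of their means 12.39), whereas 1 of 7 leukocyte markers (Cd14, 5.35) and 0 of 8 epithelial and endothelial markers lay above it. Fap, a marker of activated fibroblasts, was below background at 2.35. Array medians lay between 2.95 and 3.11. Arrays of 1 h differed in quality: for beta-actin the signal at the 3′ end was above that at the 5′ end by 2.99 (mock), 3.09 (IFN-alpha) and 3.43 (IFN-gamma) on replicate 2, and by 2.22 and 3.31 on replicates 2 and 3 of the cells without 4sU. Elsewhere that gap was 0.78 to 1.37. The median SD of a probe set within a group was 0.35 to 0.40 at 1 h and 0.12 to 0.13 at 3 h.

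Promoter sequences from RefSeq (GRCm38.p6) were available for 4 of the 5 members, all but Gbp6. They are shown because Gbp2, Gbp3 and Gbp7 rose at 3 h with both interferons, which act mainly at different DNA elements. Gbp2b lay above background only with IFN-gamma at 3 h. The 250 bases before each start were searched on both strands for the ISRE core, which is GAAA, 2 bases of any kind and GAAA again (TTTC and TTTC on the other strand), and for the GAS element TTCNNNGAA. Capitals mark the matches, and each stretch ends at the last base of its ISRE core nearest the start.
Gbp7 (chr3:142530218-142530292, + strand): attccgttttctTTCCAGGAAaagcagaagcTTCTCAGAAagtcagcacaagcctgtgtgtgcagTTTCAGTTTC
Gbp3 (chr3:142559934-142560014, + strand): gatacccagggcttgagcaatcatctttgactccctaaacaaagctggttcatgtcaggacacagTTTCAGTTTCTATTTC
Gbp2b (chr3:142594645-142594719, + strand): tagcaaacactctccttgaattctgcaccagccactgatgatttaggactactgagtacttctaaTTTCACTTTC
Gbp2 (chr3:142620539-142620613, + strand): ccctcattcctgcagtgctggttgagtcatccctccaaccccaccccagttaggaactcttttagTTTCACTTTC
An ISRE core lay in the promoter of each of the 4 members, against 3.46% of the 27025 genes in the table. These 4 are related genes in the same cluster on chromosome 3, so their promoters are not separate observations. The core is on the reverse strand in all 4, and Gbp3 has 2 overlapping matches. A GAS element lay only in Gbp7, which has 2 matches, against 8.13% of all genes. Both elements together were found in 0.4% of genes. For Gbp3, a further start in the table holds neither element. These matches are letters in a window. No binding was measured in these samples.

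Gbp2, a prenylated member that is recruited to pathogen vacuoles, was above background on all 10 mock arrays by both probe sets. Among the other 4 genes at most 2 of 10 mock arrays were above it, for Gbp3 and Gbp6. Its probe set 1435906_x_at, whose suffix marks probes that may also match related transcripts, read 6.53, 7.79, 6.82 and 6.98 on the mock arrays of 1 h. The readings were 6.54, 6.53 and 6.21 on those of 3 h, and 6.42, 7.08 and 7.64 in cells without 4sU. With IFN-alpha they were 7.49, 9.25, 7.02 and 8.59 at 1 h and 11.71, 11.67 and 11.41 at 3 h. With IFN-gamma they were 7.98, 8.73, 7.70 and 8.65 at 1 h and 13.16, 13.10 and 12.96 at 3 h. At 1 h the treated and mock arrays overlapped for both interferons, and at 3 h all 3 groups were separate, with IFN-gamma highest. The other probe set, 1418240_at, gave the same order of groups. It read 5.40, 5.25 and 5.11 in mock cells at 3 h, 10.50, 10.54 and 10.38 with IFN-alpha and 12.14, 12.28 and 12.16 with IFN-gamma.

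Gbp3, encoded in the chromosome 3 cluster with Gbp2, was below background on most mock arrays, with 2 of 10 above log2 4. It read 3.77, 3.73 and 3.59 in mock cells at 3 h, 9.61, 9.41 and 9.61 with IFN-alpha, and 9.93, 9.90 and 9.89 with IFN-gamma. The last 2 groups did not overlap but lay close together. At 1 h it read 3.16, 4.57, 3.43 and 3.36 in mock cells, 4.77, 6.05, 3.96 and 5.85 with IFN-alpha and 4.29, 5.62, 4.39 and 4.71 with IFN-gamma. Mock replicate 2, the mock array of the wide beta-actin gap, overlapped both treated groups there.

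Gbp6, which lies in the other GBP cluster, on chromosome 5, had the widest range. Probe set 1447927_at was below background on all 10 mock arrays, at 2.72 to 2.92. It read 3.91, 4.67, 3.34 and 4.50 with IFN-alpha at 1 h and 4.37, 3.46, 3.43 and 4.61 with IFN-gamma at 1 h. At 3 h it reached 9.26, 9.22 and 8.91 with IFN-alpha and 11.36, 11.36 and 11.12 with IFN-gamma. Both treated groups of 1 h lay above every mock array, although part of their arrays stayed under log2 4. Probe set 1438676_at read 3.90, 3.37 and 3.58 in mock cells at 3 h, 9.11, 9.16 and 9.02 with IFN-alpha, and 10.37, 10.46 and 10.33 with IFN-gamma. At 1 h its groups overlapped (3.67 to 4.43 in mock cells, 3.95 to 4.90 with IFN-alpha, 4.28 to 5.16 with IFN-gamma).

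Gbp7, next to Gbp3 on chromosome 3, was above background on 1 of 10 mock arrays by probe set 1434380_at. That array, replicate 2 of the 1 h mock group, read 4.39, and the other 3 of its group read 3.31, 3.22 and 3.16. With IFN-alpha at 1 h it read 4.09, 6.76, 3.47 and 5.10, and with IFN-gamma 5.45, 6.74, 4.62 and 5.65. All 4 IFN-gamma arrays lay above all 4 mock arrays, while 2 of 4 IFN-alpha arrays did. At 3 h it read 3.83, 3.26 and 3.09 in mock cells, 9.63, 9.70 and 9.49 with IFN-alpha, and 10.49, 10.42 and 10.16 with IFN-gamma. Probe set 1425156_at was lower throughout and read 2.37, 2.31 and 2.60 in mock cells at 3 h, 7.59, 7.36 and 8.19 with IFN-alpha, and 8.46, 8.14 and 8.85 with IFN-gamma. By this probe set the 2 interferon groups overlapped at 3 h.

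Gbp2b, the gene formerly called Gbp1, was near the lowest value of the scale, 2.00 to 2.04, on all mock arrays and all 1 h arrays. It read 3.91, 2.77 and 3.94 with IFN-alpha at 3 h, all below background, and 5.46, 4.77 and 4.46 with IFN-gamma at 3 h. Those 3 IFN-gamma arrays were its only values above log2 4, and through them alone it passed the filter on low values (above log2 4 on at least 3 arrays). All 8 probe sets passed that filter. The 2 of Gbp2 would have passed it on the mock arrays alone, and the other 6 passed through treated arrays, so a difference from mock in some group was built into their inclusion.

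**Figure D1:**
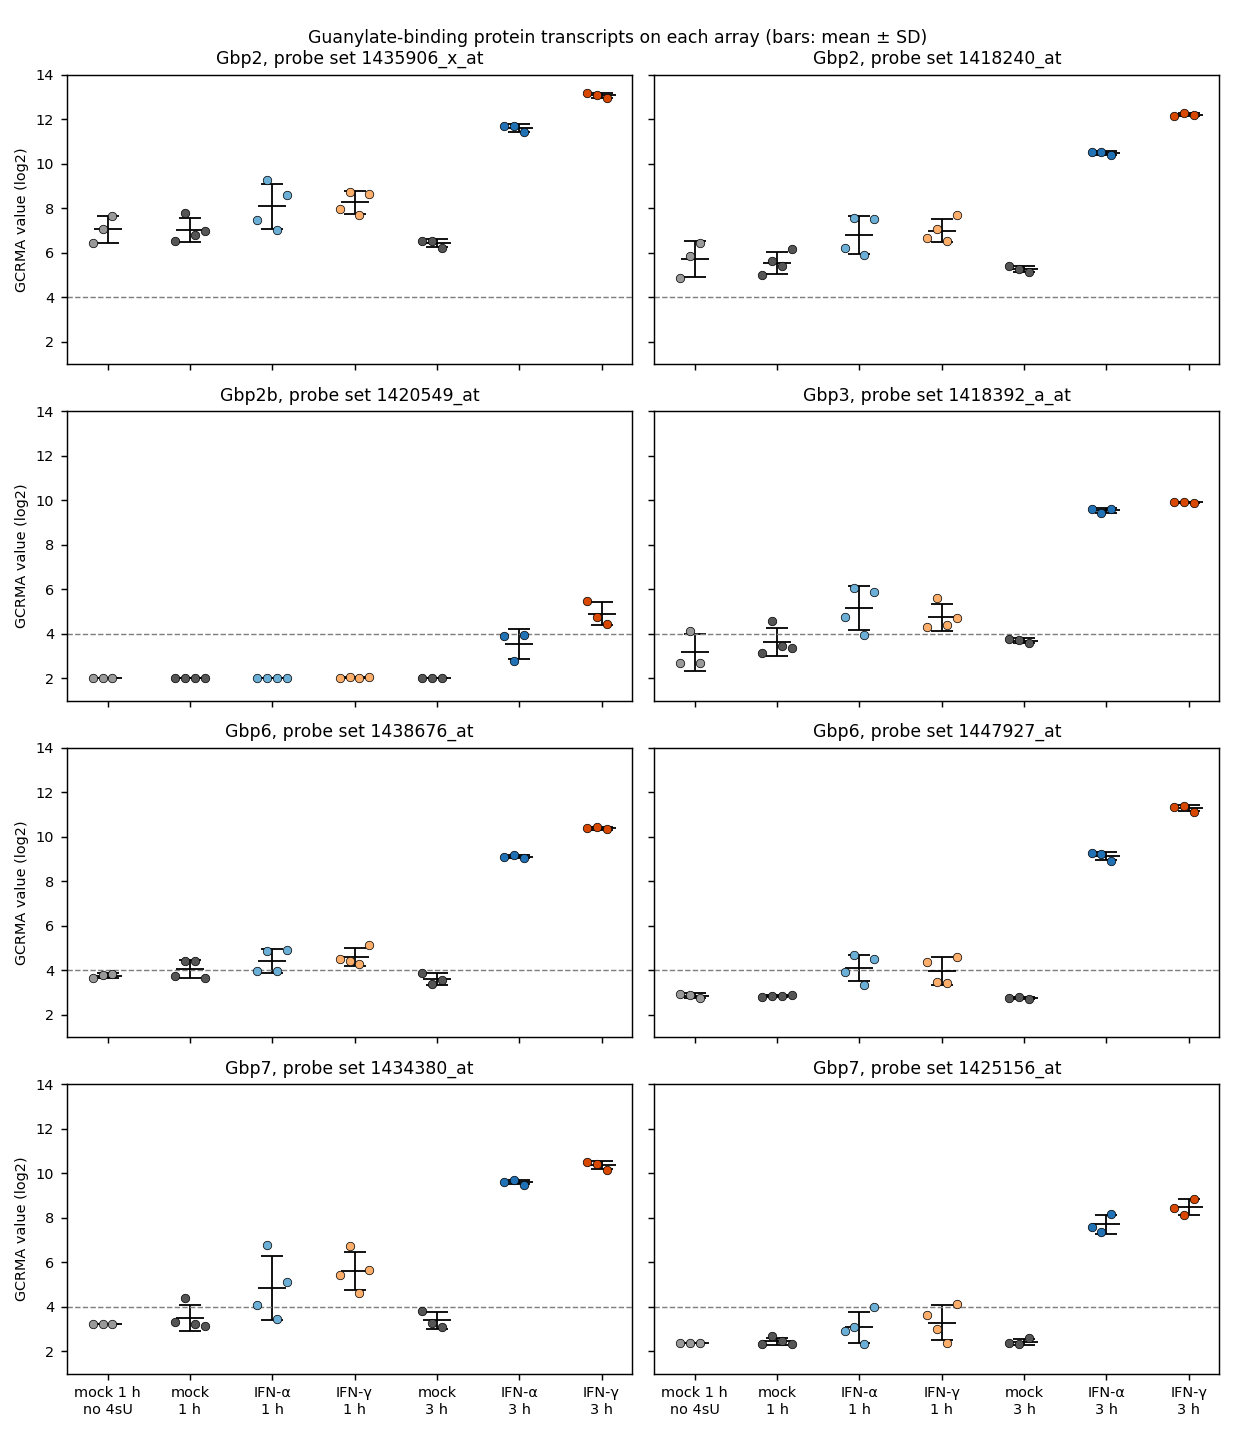
GCRMA values (log2) of the 8 probe sets on each of the 24 arrays, by group, with replicates in number order within a group. Horizontal bars are the mean, whiskers the SD, and the dashed line is the background level of log2 4. Group means of 3 h are ordered mock, IFN-alpha, IFN-gamma in every panel, with an overlap between the interferons only for Gbp7 1425156_at.

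For all 8 probe sets the group means stood in the same order at the top: IFN-gamma at 3 h, IFN-alpha at 3 h, then a group of 1 h with interferon. For Gbp2b the means of the 5 lower groups were all 2.01 to 2.03. From the third place down, neighbouring groups overlapped on their arrays. The exceptions were Gbp3 and Gbp6 1447927_at, where the lower of the interferon groups of 1 h was separate from the next mock group.

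The first comparison asked which members responded to IFN-alpha within 1 h. Gbp6 by probe set 1447927_at was 1.26 ± 0.26 (SE, n = 4 arrays per group) higher on the log2 scale than in mock cells, at least 1.08-fold (limma adjusted p = 0.0372). It was the 1 of 8 probe sets that passed an adjusted p of 0.05, where 0.259% of the 19305 probe sets tested passed and were higher. It was also the 1 of 8 whose treated arrays all lay above all mock arrays, against 0.508% of all. The other Gbp6 probe set differed by 0.36 ± 0.24. Gbp3 differed by 1.53 ± 0.41 (limma adjusted p = 0.348), Gbp7 1434380_at by 1.34 ± 0.50, Gbp2 by 1.06 ± 0.38 and 1.24 ± 0.37, and Gbp2b by -0.0027 (95% interval -0.43 to 0.42). The median difference was 1.15 over the 8 probe sets and -0.01 over all tested.

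The IFN-alpha arrays of 1 h fell into a high and a low pair. Replicates 2 and 4 were higher than replicates 1 and 3 in every probe set but that of Gbp2b. Arrays of 1 h with the same number deviated together across treatments (correlations 0.465 to 0.914), so the comparison was also fitted with the replicate number as a block. With 1 block over both times, Gbp2 1418240_at passed besides Gbp6 1447927_at (limma adjusted p = 0.0102 and 0.0179). That block joins arrays of the same number across the times, a link that the labels do not state and that was not checked. With a block within each time, 5 of 8 passed: Gbp3 (limma adjusted p = 0.00132), both probe sets of Gbp2 (0.0105 and 0.00102), Gbp6 1447927_at (0.0148) and Gbp7 1434380_at (0.0249). The size of each difference is the same with and without the block. Shares of all probe sets that passed in the block fits, or in the other alternative fits, are not given, here or below. Whether a block or another setting changed calls in general therefore cannot be read from these counts.

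The Gbp6 call rests on values near background and on the spread of the other groups. With values under log2 4 set to 4 the difference was 0.29 (limma adjusted p = 1.00), and in a fit of the 2 groups alone the adjusted p was 0.796. Without the arrays of wide beta-actin gap it was lost too (1.07, limma adjusted p = 0.331), and Gbp3 passed in its place (1.55, 0.0468). It also missed the threshold without any 1 of the 4 mock arrays or of IFN-alpha replicates 1, 2 and 4 (limma adjusted p = 0.0656 to 0.226). Without IFN-alpha replicate 3, Gbp3 passed as well (1.93, limma adjusted p = 0.0304).

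For IFN-gamma at 1 h, 0 of 8 probe sets passed, where 0.435% of all passed and were higher. An unadjusted limma p under 0.05 was found for 7 of 8 here and for 5 of 8 with IFN-alpha at 1 h. The share of all probe sets under that mark is not given, so these unadjusted counts carry no weight of their own. The largest difference was that of Gbp7 1434380_at, 2.10 ± 0.50 (SE, n = 4 arrays per group; limma adjusted p = 0.0823), followed by Gbp2 1418240_at with 1.44 ± 0.37 (0.129), Gbp2 1435906_x_at with 1.24 ± 0.38, Gbp3 with 1.12 ± 0.41 and Gbp6 1447927_at with 1.12 ± 0.26 (0.0598). Treated arrays lay above all mock arrays for 3 of 8, namely Gbp2 1418240_at, Gbp6 1447927_at and Gbp7 1434380_at, against 0.746% of all. The median difference was 1.12, and -0.04 over all tested. Gbp2b differed by 0.0088 (95% interval -0.42 to 0.44).

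With 1 replicate block over both times these same 3 probe sets passed for IFN-gamma (limma adjusted p = 0.0276 for Gbp7, 0.00142 for Gbp2 and 0.0246 for Gbp6). With a block within each time, 5 passed: Gbp2 1418240_at (limma adjusted p = 0.000121), Gbp7 1434380_at (0.00023), Gbp2 1435906_x_at (0.00134), Gbp3 (0.00922) and Gbp6 1447927_at (0.0152). Without the arrays of wide beta-actin gap, which are replicate 2 in these groups, 2 passed (Gbp7 1434380_at, 2.01 and limma adjusted p = 0.00558; Gbp6 1447927_at, 1.29 and 0.0486). A limma fit with a variance trend, robust prior and array weights called the same 2. Leaving out mock replicate 2 or IFN-gamma replicate 3 brought Gbp7 1434380_at past the threshold (2.39 and 2.43), and leaving out IFN-gamma replicate 2 or 3 brought in Gbp6 1447927_at (1.29 and 1.30).

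**Figure D2:**
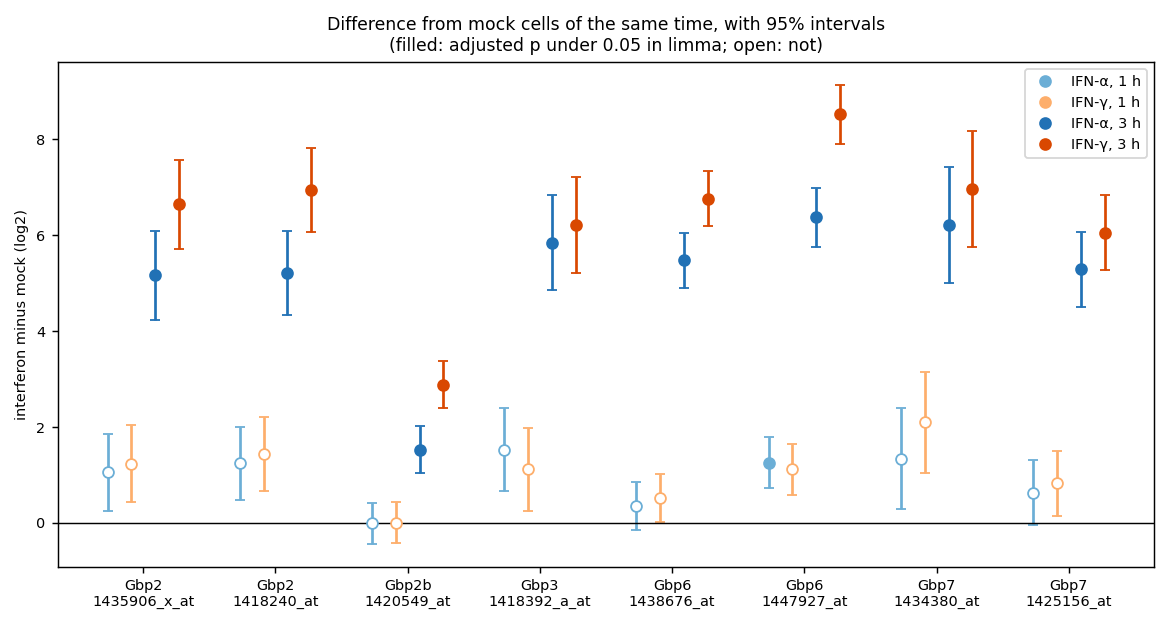
Difference between interferon-treated and mock cells of the same time (log2) for the 8 probe sets, with 95% intervals from limma and 4 points per probe set for the 2 interferons at 1 h and 3 h. Filled points passed an adjusted p of 0.05. Differences of 1 h lie between -0.0027 and 2.10, and those of 3 h between 1.53 (Gbp2b with IFN-alpha) and 8.52 (Gbp6 1447927_at with IFN-gamma).

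At 3 h of IFN-alpha all 8 probe sets passed, where 1.53% of all probe sets passed and were higher. For all 8 the treated arrays lay above every mock array, against 6.21% of all. Gbp2 was 35.9-fold higher than in mock cells by 1435906_x_at (5.17 ± 0.44 on the log2 scale, SE, n = 3 arrays per group, limma adjusted p = 3.95e-08) and 37.2-fold by 1418240_at (5.22 ± 0.42). Gbp3 was at least 46.7-fold higher (5.85 ± 0.48, limma adjusted p = 1.99e-08). Gbp6 was at least 34.2-fold and at least 35.0-fold higher by its 2 probe sets (5.48 ± 0.28 and 6.37 ± 0.30). Gbp7 was at least 48.7-fold higher by 1434380_at and at least 13.1-fold by 1425156_at (6.22 ± 0.58 and 5.29 ± 0.38).

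Gbp2b differed by 1.53 ± 0.24 with IFN-alpha at 3 h (limma adjusted p = 0.000269), but both group means lay below background and no fold is given. That call depended on the pooled spread: with only the 3 h mock and IFN-alpha groups in the fit the adjusted p was 0.0638, and with values under log2 4 set to 4 the difference was 0. The median difference of the 8 probe sets was 5.38, against -0.06 over all tested.

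At 3 h of IFN-gamma again all 8 passed, where 1.88% of all passed and were higher, with separate groups for all 8, against 8.31% of all. Gbp6 by 1447927_at was at least 155-fold higher (8.52 ± 0.30, SE, n = 3 arrays per group, limma adjusted p = 2.76e-14), rank 4 of 19305 by difference. Its other probe set gave at least 83.6-fold (6.77 ± 0.28). Gbp2 was 100.0-fold and 123-fold higher (6.64 ± 0.44 and 6.94 ± 0.42). Gbp7 was at least 82.0-fold and at least 22.3-fold higher (6.97 ± 0.58 and 6.05 ± 0.38), and Gbp3 at least 60.1-fold (6.21 ± 0.48). Gbp2b was at least 1.86-fold higher (2.88 ± 0.24, limma adjusted p = 3.4e-08). Since only these IFN-gamma arrays carried Gbp2b past the filter on low values, its place in these counts partly follows from the filter. The median difference was 6.71, against -0.05 over all tested. All 16 calls of the 3 h comparisons held when any 1 array was left out.

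The interferons were then compared directly. At 1 h no probe set differed between them by limma (0 of 8 passed, 0 with an unadjusted p under 0.05; 0.363% of all passed in either direction). Intervals of the difference, IFN-gamma minus IFN-alpha, were wide. They ran from -0.29 to 1.81 for Gbp7 1434380_at, from -1.27 to 0.46 for Gbp3 and from -0.62 to 0.98 for Gbp2 1435906_x_at, so differences of this size could not be seen at 1 h.

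At 3 h 4 of 8 probe sets were lower with IFN-alpha than with IFN-gamma, where 0.922% of all passed and were lower. Gbp6 was 4.43-fold higher with IFN-gamma by 1447927_at (2.15 ± 0.30 on the log2 scale, SE, n = 3 arrays per group, limma adjusted p = 8.75e-05) and 2.44-fold by 1438676_at (1.29 ± 0.28, 0.0122). Gbp2b was at least 1.86-fold higher (1.35 ± 0.24, limma adjusted p = 0.00155), with all 3 IFN-alpha arrays below background. It was among the probe sets tested only because of its IFN-gamma arrays, so its count here is set in part by the filter. Gbp2 was 3.30-fold higher by 1418240_at (1.72 ± 0.42, 0.038). Its other probe set differed 2.78-fold in the same direction and did not pass (1.48 ± 0.44, limma adjusted p = 0.154), although it did with the replicate block (0.0224 with 1 block over both times, 0.000354 within each time).

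Gbp3 and Gbp7 did not pass. The difference was 0.36 for Gbp3 (95% interval -0.63 to 1.36), 0.75 for Gbp7 1434380_at (-0.46 to 1.96) and 0.77 for Gbp7 1425156_at (-0.02 to 1.55). For 7 of 8 probe sets, all but Gbp7 1425156_at, every IFN-alpha array lay below every IFN-gamma array, against 10.7% of all probe sets. The error of each probe set is pooled over the 7 groups. For most members it so includes a wider scatter of the 1 h arrays, but for Gbp2b the 1 h arrays were the tighter ones (SD 0.0043 to 0.018, against 0.67 and 0.51 with the interferons at 3 h). With only the 2 groups of 3 h fitted, Gbp7 1434380_at passed (limma adjusted p = 0.011) and Gbp2 1435906_x_at too (0.000417), while Gbp2b did not (0.14). The call of Gbp2 1418240_at was lost without any 1 of the 6 arrays (limma adjusted p = 0.121 to 0.16), and that of Gbp6 1438676_at without IFN-alpha array 1 or 3, or without IFN-gamma array 1 or 2 (0.0505 to 0.0662). The calls of Gbp2b and Gbp6 1447927_at held without any 1 array.

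**Figure D3:**
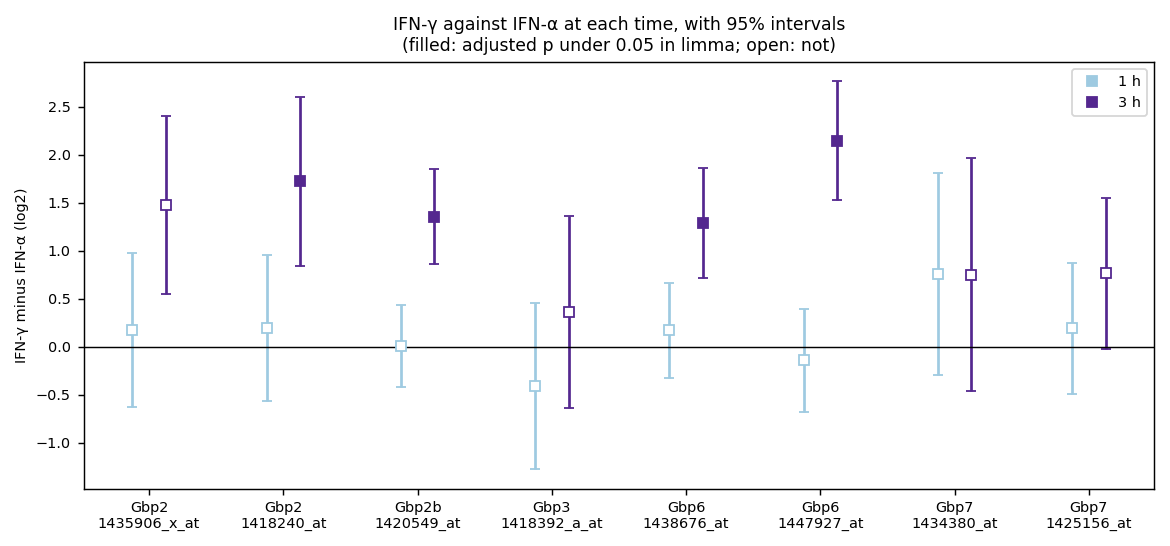
Difference between IFN-gamma and IFN-alpha (log2, positive where IFN-gamma was higher) at 1 h and 3 h for the 8 probe sets, with 95% intervals from limma; filled points passed an adjusted p of 0.05. At 1 h every interval spans 0, and at 3 h the differences run from 0.36 for Gbp3 to 2.15 for Gbp6 1447927_at.

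Members were set against each other by how much more they gained with IFN-gamma than with IFN-alpha at 3 h, 10 pairs in all, each gene by its probe set of highest mean. The excess was 1.11 ± 0.15 (SE) larger for Gbp2 than for Gbp3 and 0.92 ± 0.11 larger for Gbp6 than for Gbp3 on the log2 scale. For 6 of the 10 pairs the within-array difference of the 2 genes did not overlap between the treatments. The pairs reuse the same genes, so they are not separate observations, and no share over other gene pairs is given. Pairs with Gbp2b use IFN-alpha arrays that lay below background. With 3 arrays a group the exact two-sided permutation test cannot go below 0.1, the value of all 6 (0.167 adjusted over the 10 pairs). No pair passed by this test.

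Whether a response grew from 1 h to 3 h was tested as a difference of differences. All 8 probe sets gained from 1 h to 3 h with IFN-alpha, where 0.932% of all passed and were higher, and all 8 with IFN-gamma, where 0.787% did. For Gbp2b the IFN-gamma gain draws on the same 3 h arrays that alone brought it past the filter on low values. The gain was 4.11 ± 0.59 and 3.98 ± 0.56 for Gbp2 with IFN-alpha and 5.41 ± 0.59 and 5.50 ± 0.56 with IFN-gamma. It was 7.40 ± 0.39 for Gbp6 1447927_at with IFN-gamma (limma adjusted p = 8.01e-11) and 1.53 ± 0.31 for Gbp2b with IFN-alpha (0.0108), the lowest of the 16. The Gbp2b call was lost without IFN-alpha 3 h replicate 1 or 3 (limma adjusted p = 0.0593 and 0.0584), without the arrays of wide beta-actin gap (0.0693) and with a variance trend, robust prior and array weights (0.503). With values under log2 4 set to 4 that gain was 0. The later arrays also had another 4sU dose and window, and these cannot be told apart from time.

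The gap between the interferons widened from 1 h to 3 h for 1 of 8 probe sets, Gbp6 1447927_at, where 0.218% of all passed in that direction. IFN-alpha minus IFN-gamma moved by -2.29 ± 0.39 (limma adjusted p = 0.00341). The adjusted p was 0.088 with only the groups compared in the fit. With 1 replicate block over both times Gbp2 1418240_at passed too (-1.52, limma adjusted p = 0.031). With a replicate block within each time 4 passed, the others being both probe sets of Gbp2 (limma adjusted p = 0.0242 and 0.00353) and Gbp2b (0.0203). Gbp2b also passed without IFN-alpha 3 h replicate 1 or 3 or IFN-gamma 3 h replicate 3 (-1.53, -1.54 and -1.56). Its place among the probe sets tested came from its IFN-gamma arrays of 3 h alone. For the other Gbp6 probe set the change was -1.12 ± 0.36 (0.532), so the probe sets of that gene differ by 1.17.

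In mock cells 4sU made no difference that passed for any of the 8 (0 by limma, 0 with an unadjusted p under 0.05; 0.0311% of all passed in either direction). Mock cells with 4sU minus those without differed by -0.16 to 0.46. Mock cells of 3 h differed from those of 1 h by -0.60 (Gbp2 1435906_x_at) to 0.07 (Gbp3).

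The cells also held the other parts of this system, and lists of them were counted in the same comparisons. Against mock, 0.259% and 0.435% of all probe sets passed and were higher at 1 h with IFN-alpha and IFN-gamma, and 1.53% and 1.88% at 3 h. A count of 0 in a short list is near these shares. Of 7 receptor and kinase genes (Ifnar1, Ifnar2, Ifngr1, Ifngr2, Jak1, Jak2 and Tyk2), all above background, 0 passed in any of the 4 comparisons with mock. Jak2, a kinase of the IFN-gamma receptor, had the largest difference, 0.60 with IFN-alpha at 3 h (limma adjusted p = 0.49). Of 5 measured transcription factors, 2 rose at 1 h with each interferon and 4 rose at 3 h with each. Irf9, a transcription factor that acts at ISRE elements, was 7.86-fold and 5.62-fold higher at 1 h with IFN-alpha and IFN-gamma and 14.3-fold and 10.6-fold at 3 h. Irf1 was 10.2-fold higher with IFN-alpha and 38.8-fold with IFN-gamma at 1 h, and 1.97-fold and 23.3-fold at 3 h. Stat2 was 21.1-fold and 14.7-fold higher at 3 h.

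The p47 GTPases (IRG proteins) work with GBPs at pathogen vacuoles, and 5 of the 6 measured rose in all 4 comparisons with mock, Irgq being the exception. Irgm1, a regulator of this family, was 10.8-fold and 17.9-fold higher at 1 h with IFN-alpha and IFN-gamma and 49.3-fold and 90.8-fold at 3 h. Igtp was at least 6.80-fold and at least 11.7-fold higher at 1 h and at least 100.4-fold and at least 251-fold at 3 h. On the log2 scale Irgm1 had gained 61.0% and 64.0% of its 3 h difference by 1 h, and Ifi47, the lowest of the 5, 32.3% and 23.8%. For Gbp2, Gbp3, Gbp6 and Gbp7 these shares were 20.5%, 26.2%, 6.52% and 21.5% with IFN-alpha and 18.6%, 18.1%, 7.80% and 30.1% with IFN-gamma. The 1 h differences behind these shares did not pass in the fit without a block. Those of Gbp2, Gbp3 and Gbp7 passed with a replicate block within each time, a fit added after seeing the data. The other probe sets gave 19.7% and 13.1% for Gbp6, where the IFN-alpha difference of 1 h passed, 11.9% and 13.6% for Gbp7 and 23.8% and 20.7% for Gbp2. The shares of the families were not tested against each other. Differences of genes near background can be compressed, and whether this lowered any share was not tested. Means of the 1 h mock cells were 7.03 for Gbp2, 3.63 for Gbp3, 4.06 for Gbp6 and 3.52 for Gbp7 by the probe sets of highest mean. They were 5.42 for Irgm1, 3.16 for Irgm2, 3.03 for Igtp, 3.01 for Iigp1 and 3.68 for Ifi47.

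**Figure D4:**
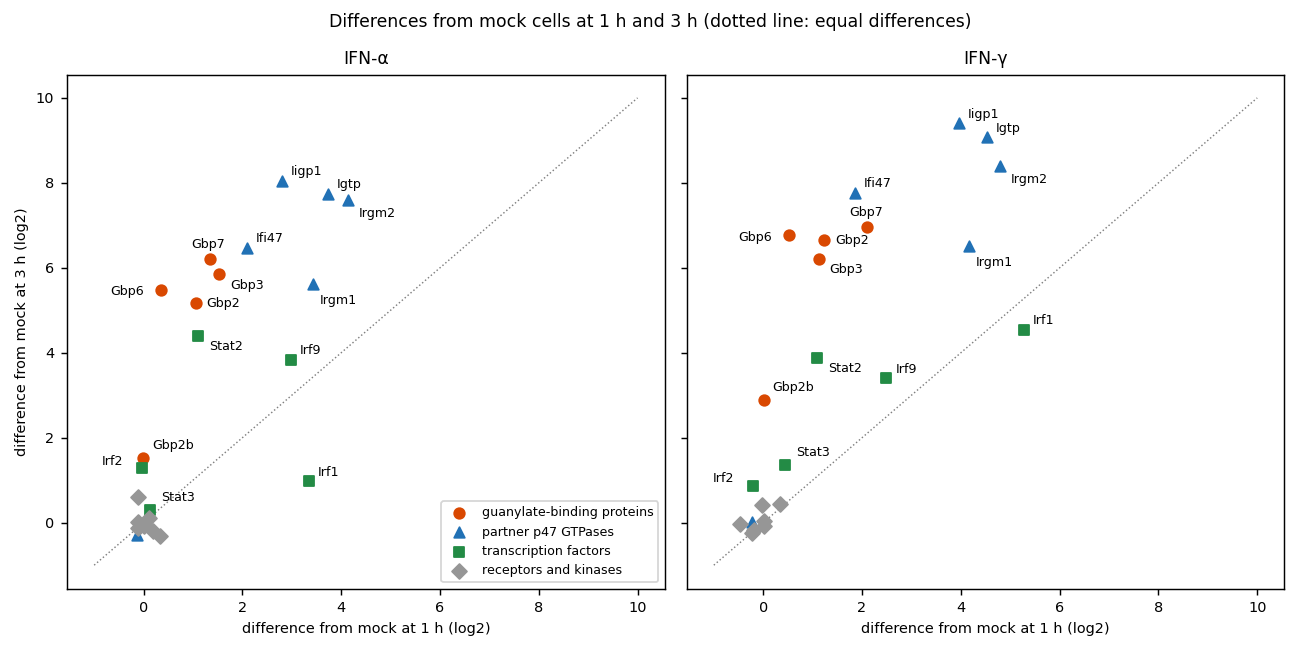
Difference from mock cells at 1 h (horizontal) and at 3 h (vertical), both log2, for the 5 GBPs by their probe set of highest mean and for p47 GTPases, transcription factors and receptors with kinases, with IFN-alpha left and IFN-gamma right. Irf1 lies below the dotted line of equal differences, Irgm1 at 3.43 and 5.62 with IFN-alpha and Gbp2 at 1.06 and 5.17.

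All 4 feedback inhibitors differed between the interferons at 3 h by limma, 1 higher and 3 lower with IFN-alpha. Of all probe sets 0.922% passed and were lower, and the share that passed and were higher is not given. Usp18, which restrains signalling at the IFN-alpha receptor, rose at least 194-fold with IFN-alpha and at least 7.76-fold with IFN-gamma (adjusted p of the difference 1.42e-08). Socs1, Socs3 and Cish, of the SOCS family of cytokine inhibitors, were higher with IFN-gamma, though both means of Cish lay below background (2.33 and 3.81). Against mock, Socs1 was at least 3.15-fold and Socs3 8.79-fold higher with IFN-gamma, and neither passed with IFN-alpha. At 1 h 2 of the 4 rose with IFN-alpha (Socs3 and Usp18) and 2 with IFN-gamma (Socs3 and Cish). Of 9 autophagy genes, which guide GBPs to vacuoles, and of 5 prenylation enzymes, 0 passed in any comparison with mock, with all of them above background. These counts are near the share of all probe sets, of which 0.259% to 1.88% passed and were higher. Of 2 measured inflammasome genes, Casp4, which encodes caspase-11, the sensor of lipopolysaccharide in the cytosol, was 1.32 and 1.61 higher on the log2 scale at 3 h with IFN-alpha and IFN-gamma (limma adjusted p = 0.000322 and 2.53e-05), while Gsdmd, its substrate, differed by 0.34 and 0.76 and did not pass.

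Of the other family members, only Gbp8 had a probe set of its own. It read 4.10 to 4.65 with IFN-gamma at 3 h, at least 1.27-fold above mock cells (1.59 ± 0.13, SE, n = 3 arrays per group, limma adjusted p = 2.15e-08). It passed the filter only through these 3 arrays, so its difference was built into its inclusion. With IFN-alpha it stayed under background at 2.81 to 2.93 (0.10, adjusted p = 1.00). A probe set assigned to both Gbp8 and Gbp4 stayed at 2.48 to 3.68 on all arrays and names neither gene. Gbp4, Gbp5, Gbp9, Gbp10 and Gbp11 were not measured by a probe set of their own.

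In the RefSeq gene order, Gbp7, Gbp3, Gbp2b and Gbp2 lie in 1 run on chromosome 3, and Gbp6 lies with Gbp8, Gbp9, Gbp4 and Gbp10 on chromosome 5. The nearest 2 protein-coding genes with a tested probe set on each side were Pdlim5, Rap1gds1, Kyat3 and Gtf2b for the first cluster and Thoc2l, Nudt9, Lrrc8c and Lrrc8d for the second. None of these 8 passed in any of the 4 comparisons with mock, where 0.259% to 1.88% of all probe sets passed and were higher. A count of 0 among so few genes is near that share. Their largest difference was 0.50 for Rap1gds1 with IFN-gamma at 3 h (limma adjusted p = 0.507).

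The 4 differences from mock were used as a pattern, with values under log2 4 set to 4, and each member was set against 9416 other genes. The measure is the root mean square difference over the 4 comparisons, on the log2 scale. The genes with patterns nearest Gbp2 were Ifi47 (0.50), Tap1 (1.17), Parp14 (1.27), Parp9 (1.28) and Oasl2 (1.30), and Ifi47 was also first for Gbp7 (0.55). Parp14 was first for Gbp3 (0.80) and Gbp6 (1.02). Gbp2, Gbp3, Gbp6 and Gbp7 lay within 0.31 to 0.71 of each other. Between any pair of these 4, at most 1 non-member lay closer. Gbp2b lay 3.75 to 4.01 from them, and its nearest gene was Batf2 (0.0056), which on this scale also differed from mock only with IFN-gamma at 3 h. On values as deposited its 5 nearest genes were others (0 of 5 shared), led by Tap2 (0.16) and Il15ra (0.16), while 2, 3, 3 and 4 of 5 were shared for Gbp2, Gbp3, Gbp6 and Gbp7. The comparisons of a time share their mock arrays, so these distances describe the 24 arrays and carry no test.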

How the data were processed

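Total cellular RNA of NIH-3T3 cells was hybridised to 24 one-colour Affymetrix arrays after one-cycle labelling, per the labels. The deposited values are log2 signals, which the authors made with GCRMA per the submitters' processing notes (version not given in the sources used here); they were used as deposited. GCRMA corrects background by probe sequence and pulls weak signals together, so differences of dim probe sets are compressed. The number of arrays limits the precision.

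Of 45101 probe sets, 64 controls were left out and 19305 above log2 4 on at least 3 arrays were kept. Genes were named from GEO's platform annotation where a probe set had 1 symbol. Related GBPs have similar sequences, so probe sets may read several members.

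All 7 groups were fitted with limma 3.58.1 in R 4.3.3 (a mean per group, 17 residual degrees of freedom, two-sided). Calls are Benjamini-Hochberg adjusted p-values under 0.05 over all 19305 probe sets. The fit was also run on simulated data with independent arrays and the same spread in every group. That run therefore does not cover the pairing of replicate numbers or the wider spread at 1 h. A gene is represented by its probe set of highest mean over the 24 arrays. All probe sets of the 5 genes are named, with the counts and the passing or largest members of each list and the 5 genes of nearest pattern. Members and lists were chosen with earlier results of these data known. Since separate cultures are not stated, p-values cover only the scatter among these arrays, possibly technical.

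Replicate numbers were checked by correlating deviations from group means: all 12 same-numbered pairs at 1 h (0.465 to 0.914) and all 9 at 3 h (0.128 to 0.646) were above 0.1, so numbers pair the arrays within each time, on the evidence of the data. A link of numbers between 1 h and 3 h was not checked, and the block over both times assumes it. Block fits of the interferon comparisons left out the mock cells without 4sU. The block within each time was added after seeing the data. Other alternatives were a floor of log2 4, no filter, a filter at log2 6, quantile normalization, only the groups compared, leaving out arrays with a beta-actin gap above 2, leaving out each array, a trend with robust prior and array weights, mock cells without 4sU as control, other probe sets, and patterns on values as deposited.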

Additional observations from a re-analysis of the deposited data

Results flagged for a closer look

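The responses of all 8 probe sets differed between 1 h and 3 h by a test of the difference itself (limma, adjusted p under 0.05). With IFN-alpha the log2 difference from mock was larger at 3 h by 4.11 and 3.98 for Gbp2 (1435906_x_at and 1418240_at), 1.53 for Gbp2b (0 with values under log2 4 set to 4), 4.32 for Gbp3, 5.12 and 5.12 for Gbp6, and 4.88 and 4.66 for Gbp7 (1434380_at and 1425156_at). With IFN-gamma it was larger by 5.41 and 5.50 for Gbp2, 2.88 for Gbp2b, 5.09 for Gbp3, 6.24 and 7.40 for Gbp6 (1438676_at and 1447927_at), and 4.87 and 5.23 for Gbp7. Gbp2b was tested only because of its IFN-gamma arrays of 3 h, so its IFN-gamma value is set in part by the filter. The 4sU dose and window also differ between the times.

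The difference between the interferons also changed between the times for Gbp6 1447927_at, by -2.29 as IFN-alpha minus IFN-gamma. One array stood apart from its group: Gbp7 1434380_at read 4.39 in mock replicate 2 of 1 h, which also has the wide beta-actin gap of 2.99; the part of that gap in the value was not tested. It was 1 of 24 groups of 4 arrays examined, and chance marks about 1 group in 20.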

How the results depend on the processing

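The 8 calls at 3 h against mock, and the 8 changes of each response between the times, kept their counts within 1.5 times under every alternative run. For IFN-alpha at 1 h the count of 1 became 0 with the floor, without a filter or with only the groups compared, 2 with 1 replicate block or with trend, robust prior and array weights, 5 with a replicate block within each time (chosen after seeing the data), and 0 to 2 when 1 array was left out. For IFN-gamma at 1 h the count of 0 became 3 with 1 replicate block, 5 with a block within each time, 2 without the arrays of wide beta-actin gap or with trend and array weights, 1 with mock cells without 4sU as control, and 0 to 2 when 1 array was left out. For the interferons at 3 h the count of 4 became 7 with trend and array weights and 2 to 3 when 1 array was left out. For the change of their difference the count of 1 became 2 with the floor or 1 replicate block, 4 with a block within each time, 0 with only the groups compared, and 1 to 2 when 1 array was left out. Fewer arrays enter when arrays or groups are left out, and the other causes were not tested. Shares of all probe sets that passed under these alternatives are not given. The counts therefore do not show whether a setting changed calls in general.

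No called difference changed sign. Those that did were small and not called. IFN-alpha minus mock at 1 h for Gbp2b became 0.0052 with quantile normalization (-0.0052 to 0.00015 leaving out 1 array). IFN-alpha minus IFN-gamma at 1 h became 0.0051 for Gbp2b with quantile normalization, and -0.22 without the arrays of wide beta-actin gap and -0.15 with trend and array weights for Gbp6 1447927_at. Leaving out 1 array it ran from -0.57 to 0.18 and -0.45 to 0.10 for Gbp2, -0.33 to 0.019 and -0.049 to 0.39 for Gbp6 and -0.50 to 0.095 for Gbp7 1425156_at. The change of that difference for Gbp7 1434380_at became -0.12 with the floor (-0.45 to 0.64 leaving out 1 array). For 4sU against none, without the arrays of wide beta-actin gap the values became 0.36 and 0.67 for Gbp2 and -0.017 for Gbp7 1434380_at, that of Gbp2b -0.0022 with quantile normalization and that of Gbp6 1447927_at 0.029 with trend and array weights. Leaving out 1 array they ran from -0.33 to 0.28 and -0.59 to 0.20 for Gbp2, -0.00010 to 0.0042 for Gbp2b, -0.070 to 0.023 for Gbp6 1447927_at and -0.016 to 0.39 for Gbp7 1434380_at.

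Signal over background limits Gbp2b, both lower groups of Gbp6 1447927_at and Gbp7 1425156_at, and most mock values, for which folds are bounds. A gene's other probe set gave other levels and the same order of the 3 h groups.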
